A study of Mus musculus with 3 samples.

Results

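Cluster 16 was a small set of immune cells in a single-cell RNA sequencing survey of the mouse pituitary gland. Its members were the cells that the authors' table of barcodes assigned to cluster 16, 250 of 37474 cells in all. They comprised 72 cells of the TpitWT library, 17 of the TpitHT library and 161 of the TpitKO library. Tpit, the product of Tbx19, is a transcription factor that corticotropes and melanotropes need to make proopiomelanocortin. The 3 groups are called WT, HT and KO. The labels leave HT unexplained, do not describe the allele, and give no age, sex or number of mice. All libraries came from dissociated pituitaries from which dead cells had been sorted out with propidium iodide, and each genotype had 1 library. No difference between genotypes could therefore be set against a spread between animals. No test was run, and every interval covers counting error only.

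The pituitary is mainly an endocrine gland, and its resident leukocytes are mostly macrophages. Plasma cells are B lineage cells that secrete antibody, which consists of heavy chains and kappa or lambda light chains; Jchain encodes the joining chain that links IgA or IgM units. T cells carry the CD3 complex with an alpha-beta or gamma-delta receptor, natural killer (NK) cells kill without such a receptor, and dendritic cells present peptides on major histocompatibility complex (MHC) class II molecules. Class II genes are switched on together by the coactivator CIITA, which acts through factors bound to shared promoter elements, the X and Y boxes.

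Cluster 16 summed to 364133 counts in WT, 104571 in HT and 763086 in KO, or means of 5057, 6151 and 4740 counts per cell. Levels are given as CPM, the counts of a gene scaled to a cluster total of 1000000. A count of 0 allows up to 8.24 CPM in WT, 28.7 CPM in HT and 3.93 CPM in KO, taking 3 counts as the limit. Counts of 1 gene come clustered in few cells, so CPM intervals are too narrow, and the number of cells with a count is given beside them. The libraries shared 115 barcodes, and 2 cells of cluster 16 had a barcode that another library also held.

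The label of lymphoid and immunoglobulin cells described only some of the cluster. Its marker Igkc, the kappa light chain constant gene, had a count in 12 of the 72 WT members, 3 of the 17 from HT and 15 of the 161 from KO. The T cell receptor gene Trbc2 had one in 41, 3 and 66 cells, and the class II gene H2-Aa in 12, 6 and 58 cells. Immunoglobulin genes together gave 18.6% of the cluster's counts in WT, 16.5% in HT and 4.43% in KO, but Igkc marked a minority of the cells. The pan-leukocyte gene Cd52 had a count in 69, 13 and 155 cells of cluster 16, and in 0.769% of the cells of cluster 9, where the endothelial gene Plvap was read in 98.5%, so most members were leukocytes. Since plasma, T, NK and dendritic cell genes were all present, the cluster is called by its number.

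On the authors' UMAP the 250 cells formed 2 separate groups. Linking cells closer than 0.5 UMAP units gave a lower group of 140 cells, an upper group of 107 cells and 3 strays far from both. The smallest distance between the groups was 1.6 units, against at most 0.121 units from any cell to its nearest neighbour within a group. The lower group held 51 WT, 4 HT and 85 KO cells, which was 70.8% of the WT members (95% Clopper-Pearson interval 58.9 to 81.0), 23.5% of those from HT (6.81 to 49.9) and 52.8% of those from KO (44.8 to 60.7). The upper group held 19 WT, 12 HT and 76 KO cells. The files give counts per cluster and not per cell, so genes could not be placed on these groups.

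**Figure D1:**
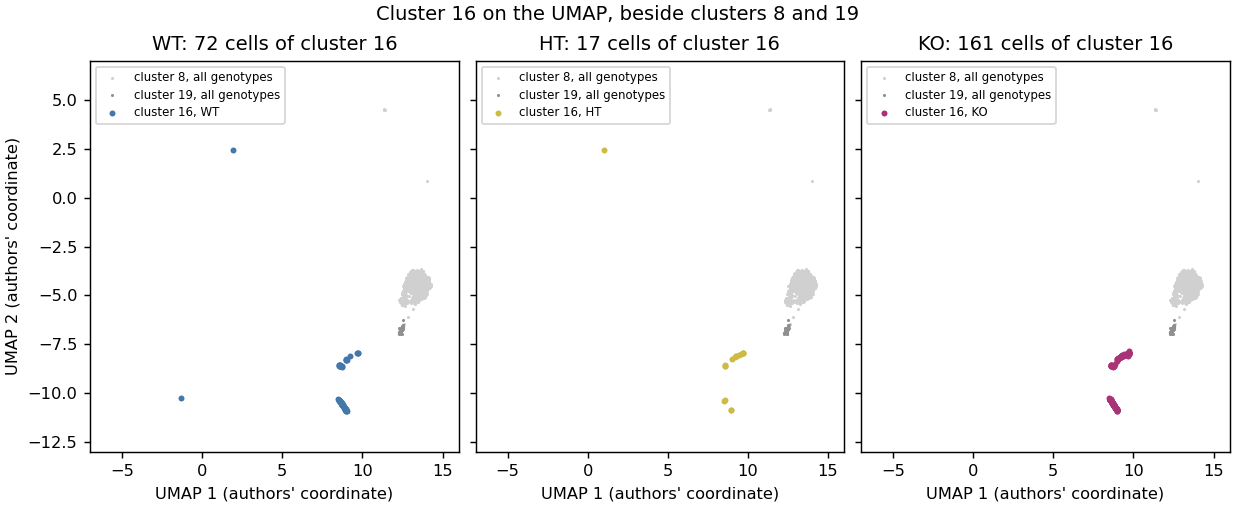
Cells of cluster 16 on the authors' UMAP coordinates (unitless axes), 1 panel per library, with all cells of clusters 8 and 19 in grey. Cells of other clusters are not drawn. The 72 WT, 17 HT and 161 KO cells form a lower and an upper group, apart from clusters 8 and 19, and 3 cells (2 WT, 1 HT) lie far from both.

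Cluster 16 made up 0.642% of the WT library (0.502 to 0.807), 0.132% of the HT library (0.0772 to 0.212) and 1.2% of the KO library (1.02 to 1.4). The share was 1.87 times as high in KO as in WT (exact conditional interval 1.41 to 2.51), and 4.85 times as high in WT as in HT (2.83 to 8.77). KO had no cells in clusters 6 and 7. With those clusters left out of the base, the KO to WT ratio was 1.57 (1.18 to 2.1). Clusters 8 and 19, the cells rich in macrophage genes, had KO to WT ratios of 1.14 (0.978 to 1.32) and 1.49 (0.91 to 2.48), with 1 in both intervals. The lower UMAP group had a KO to WT ratio of 1.39 per library cell (0.974 to 2.01), and the upper group one of 3.35 (2 to 5.86).

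Some NK and T cell transcripts, counted over all clusters, were fewest in HT too. Ncr1, which encodes the activating receptor NKp46 of NK cells, had 84 counts in the WT library, 4 in HT and 136 in KO. Nkg7, a gene of cytotoxic granules, had 170, 15 and 351, and Cd3g, a chain of the CD3 complex, had 116, 35 and 298. Cluster 16 itself held 98.8%, 94.7% and 93.1% of the WT counts of Ncr1, Nkg7 and Cd3g. These totals therefore mostly count the same cells again and are no separate evidence. The HT library was the deepest, with 152382545 counts against 107289047 in WT and 133252735 in KO. Trbc2 did not follow this order over whole libraries, with 215, 215 and 327 counts, and only 6.98% of its HT counts lay in cluster 16. The dendritic cell gene Cd209a went the other way, with 2 counts in the WT library and 20 in HT.

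Plasma cell genes led the cluster in abundance. In the authors' table Igkc lies on chromosome 6 from 70726435 to 70726966, Igha on chromosome 12 from 113254830 to 113260236, and Jchain on chromosome 5 from 88519809 to 88527891, in the build the notes call mm10 or GRCm38. Igkc was at 132007 CPM in WT, 119020 CPM in HT and 35080 CPM in KO. Igha, the IgA heavy chain constant gene, was at 43495, 23295 and 8118 CPM, and Jchain at 22610, 17567 and 4994 CPM. All 3 were lowest in KO. The immunoglobulin constant genes together took 18.3% of the WT counts, 16.1% of the HT counts and 4.37% of the KO counts, so the WT share was 4.19 times the KO share. These counts came from few cells: Igha from 10, 2 and 14, Jchain from 10, 3 and 9, and Mzb1, an endoplasmic reticulum protein that assists antibody assembly, from 12, 3 and 9.

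Cells of cluster 16 with Igkc held more counts each in WT than in KO. The ratio of such cells' library shares depended on the gene used and had 1 in its interval for each of Igkc, Mzb1 and Jchain. Cells of cluster 16 with Igkc were 0.107% of all WT library cells and 0.112% of all KO library cells. The KO to WT ratio was 1.05 with an interval of 0.457 to 2.45. The ratio was 0.627 (0.234 to 1.62) for cluster 16 cells with Mzb1 and 0.753 (0.271 to 2.06) for those with Jchain. Each cluster 16 cell with Igkc held a mean of 4006 Igkc counts in WT, 4149 in HT and 1785 in KO. For Jchain the means were 823, 612 and 423 counts. Outside cluster 16, Igkc was seen in 2.28%, 1.54% and 3.15% of the cells of the WT, HT and KO libraries, at means of 1.08, 1.2 and 1.32 counts in each of those cells. The part of free RNA in the number of positive cells was not tested. Cluster 16 held 99.4%, 98.1% and 98% of each library's Igkc counts.

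**Figure D2:**
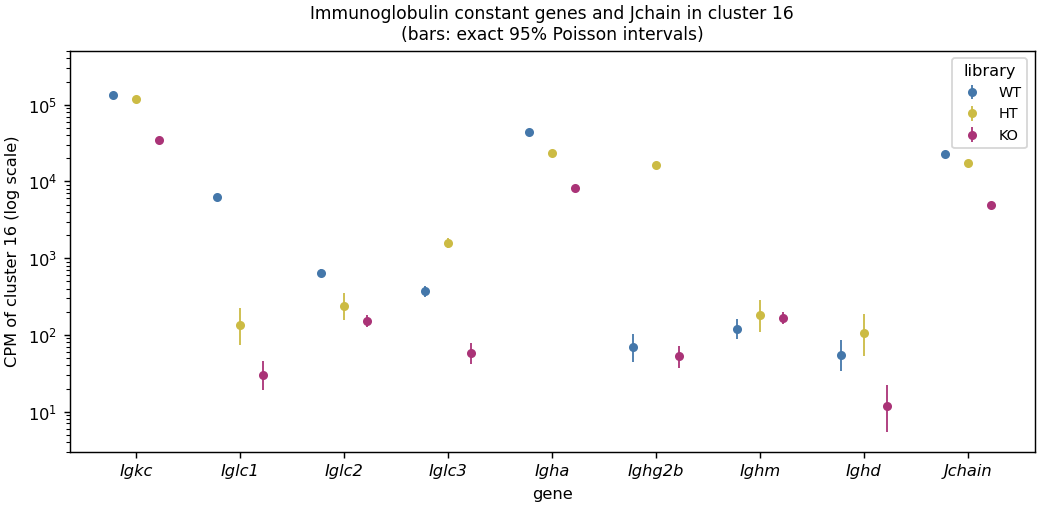
Level in CPM (log axis) of immunoglobulin constant genes and Jchain in cluster 16, for the WT, HT and KO libraries, with exact 95% Poisson intervals. Igkc, Igha and Jchain are lowest in KO, Iglc1 stands high only in WT (6272 CPM) and Ighg2b only in HT (16458 CPM).

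Heavy and light chain use differed between the libraries. IgA was the main heavy chain gene in each, with 15838 of 15996 heavy chain constant counts in WT, 2436 of 4226 in HT and 6195 of 6417 in KO. Ighg2b, an IgG heavy chain gene, had 1721 counts in 3 HT cells, against 25 counts in 9 WT cells and 40 in 5 KO cells. Iglc1, a lambda light chain constant gene, had 2284 counts in 8 WT cells, against 14 in 3 HT cells and 23 in 8 KO cells, and its partner Iglv1 had 471, 6 and 60 counts. Which single cells gave these counts is not recorded in the tables. Ighg1, Ighg2c, Ighg3 and Ighe had 6 to 18 counts each in a library. Their exons are closely alike, so such low values are uncertain.

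Few variable segments were read in each library, and with so few a small overlap between libraries describes no difference. Counts fell on 30 of the 160 kappa variable genes, with 13 read in WT, 9 in HT and 13 in KO. Only 1 of these had a count in both WT and KO, and none had one in all 3 libraries. Igkv4-57-1 had 42 counts in 1 WT cell and none in HT or KO. Igkv1-117 had 55 counts in 2 KO cells, Igkv12-44 had 28 and Igkv1-135 had 27, each of these last in 1 KO cell, and none of the 3 had a count in WT or HT. Of 183 heavy chain variable genes, 29 had a count in WT, 24 in HT and 21 in KO. In all, 55 had a count and 2 had one in both WT and KO. Ighv5-6 led them with 5, 1 and 13 counts, and Ighv1-4 had 11 counts in 1 WT cell. Sequencing from the 3′ end rarely reaches these segments, so a segment without counts may still have been in use.

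Markers of B cells before the plasma stage were sparse. Ms4a1, which encodes CD20 of mature B cells, had no count in WT or HT and 53 counts in 5 KO cells, at least 8.43-fold higher in KO by the limit of 3 counts in WT. Cd79a, a signalling chain of the B cell receptor, had 84, 34 and 114 counts in 12, 3 and 13 cells. These numbers of cells were close to those with Igkc. Of 18 B cell list genes, 9 had the 20 counts in WT and KO together needed to be compared, and of these 3 were higher in KO and 6 lower. Of all 6188 genes compared, 69.3% were higher in KO.

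The T cell list was expressed at a summed 2345 CPM in WT, 641 CPM in HT and 2061 CPM in KO. Cd3g had a count in 37.5% of the WT members (26.4 to 49.7), 11.8% of those from HT (1.46 to 36.4) and 30.4% of those from KO (23.4 to 38.2). In cluster 9, endothelial-like cells that should lack it, Cd3g had a count in 0.192% of cells at a mean depth of 3610 to 4343 counts. Trbc2 had a count in 56.9%, 17.6% and 41% of the cells of cluster 16, against 0.288% of cluster 9 cells. The HT shares were lowest, on 17 cells.

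CD8 genes outnumbered CD4. Cd8b1, a chain of the CD8 co-receptor of cytotoxic T cells, had a count in 15 WT, 1 HT and 18 KO cells, and Cd8a in 13, 1 and 15. Cd4, the co-receptor of helper T cells, had a count in 2, 1 and 4 cells. Foxp3, the factor of regulatory T cells, was read once, in 1 KO cell. Gamma-delta receptor genes were also present: the constant gene Trdc had a count in 6 WT, no HT and 12 KO cells, and Trgc4 in 8, 0 and 5 cells. The variable gene Trdv4 had a count in 2, 0 and 4 cells. Traj18, a joining segment known from the invariant receptor of natural killer T cells, had 3 counts in 3 WT cells and 4 counts in 3 KO cells.

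NK cell genes had a summed level of 2411 CPM in WT, 239 CPM in HT and 3234 CPM in KO. Ncr1 had a count in 26.4% of the WT members (16.7 to 38.1), none of the 17 from HT (0 to 19.5) and 21.1% of those from KO (15.1 to 28.2), against 0.0962% of cluster 9 cells. Nkg7 had one in 58.3%, 17.6% and 36.6%. Xcl1, a chemokine that attracts cross-presenting dendritic cells, had 107, 4 and 304 counts in 20, 2 and 31 cells. Ccl5, a chemokine of T and NK cells, was at 871, 57.4 and 1303 CPM. Killing genes were sparse: Gzma (granzyme A) had 71 counts in 2 WT cells, 1 count in HT and 326 counts in 13 KO cells, and Prf1 (perforin) had a count in 6, 1 and 15 cells.

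**Figure D3:**
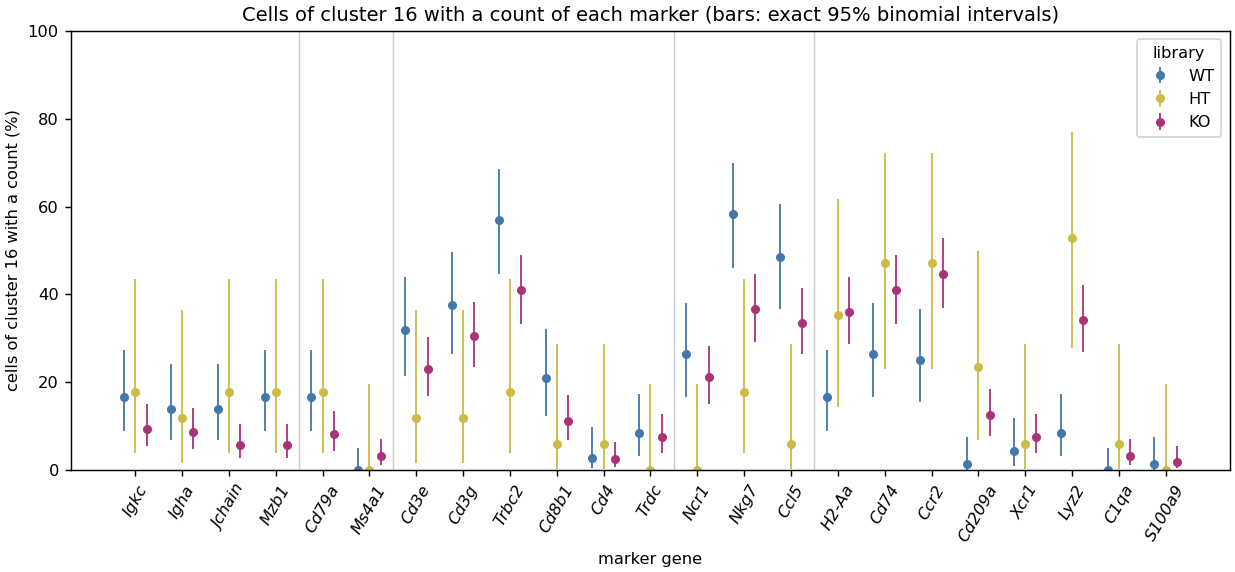
Share of cluster 16 cells with a count (percent) for marker genes of plasma, B, T, NK and myeloid or dendritic cells, by library, with exact 95% binomial intervals. The T and NK markers Trbc2 (56.9%), Cd3g, Ncr1 and Nkg7 (58.3%) are highest in WT, but Cd4 is not. H2-Aa, Ccr2, Cd209a and Lyz2 are higher in HT and KO than in WT.

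The summed level of the class II list was lowest in WT. H2-Aa was at 761 CPM in WT, 4112 CPM in HT and 4064 CPM in KO. It had a count in 16.7% of the WT members (8.91 to 27.3), 35.3% of those from HT (14.2 to 61.7) and 36% of those from KO (28.6 to 44.0), against 8.75% of cluster 9 cells. Cd74, the invariant chain of class II, was at 2027, 8922 and 8762 CPM, and Ciita at 19.2, 76.5 and 155 CPM. HT stood near KO for H2-Aa and Cd74. Promoters of 3 class II genes are shown because each of the 10 class II genes listed was higher in KO than in WT. These are the 150 bases before the RefSeq start on GRCm38.p6, 5′ to 3′ on the gene's strand, with the Y box core GATTGG in capitals.
H2-Aa, chr17:34287824-34287973, minus strand: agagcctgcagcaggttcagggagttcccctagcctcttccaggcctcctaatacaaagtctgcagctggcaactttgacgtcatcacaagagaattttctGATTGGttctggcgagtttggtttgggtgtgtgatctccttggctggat
H2-Eb1, chr17:34305717-34305866, plus strand: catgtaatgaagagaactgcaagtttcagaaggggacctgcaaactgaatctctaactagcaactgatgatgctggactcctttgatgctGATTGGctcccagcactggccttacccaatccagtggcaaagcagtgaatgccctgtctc
H2-DMb1, chr17:34153041-34153190, plus strand: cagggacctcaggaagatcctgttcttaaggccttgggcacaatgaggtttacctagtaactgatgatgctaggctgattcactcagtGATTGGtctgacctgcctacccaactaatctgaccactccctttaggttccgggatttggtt
H2-Eb1 also held the complement, CCAATC, nearer the start. The first base of the capitals lies at -49, -60 and -62 from the start of these genes. Of the 10 class II list genes, 7 had a promoter in the RefSeq table and 6 of these held GATTGG or its complement in the window. Of all 32851 promoter windows of this length, 10.9% held it. A match describes the letters and does not show that a factor was bound.

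All 10 class II list genes were higher in KO than in WT, and 9 of them at least 2-fold. H2-DMb1, which belongs to the peptide exchange complex, was at 49.4, 268 and 355 CPM in WT, HT and KO. The KO level was 7.18 times the WT level (4.46 to 12.3). H2-Eb1 was at 590, 3051 and 2874 CPM. The exception was H2-Ob at 13.7, 9.56 and 22.3 CPM. Of all 6188 genes compared, 790 were at least 2-fold higher in KO, which is 12.8%, and 120 were at least 2-fold lower, which is 1.94%. The list's median log2 ratio was 2.3, against 0.29 for all genes compared. All immunoglobulin genes took 18.6% of the WT counts and 4.43% of the KO counts, and hormone genes 10.7% and 4.26%. With immunoglobulin, hormone, hemoglobin and mitochondrial genes left out of the totals, the genes' median was -0.02, the list's median was 1.94, and the counts became 539 higher and 338 lower. In cluster 8 the same list summed to 41284, 42841 and 47433 CPM, with a median log2 ratio of KO over WT of 0.3.

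Several dendritic and monocyte genes stood higher in KO than in WT. Of 11 conventional dendritic cell genes, 9 had enough counts to be compared, 1 of them without a count in WT. A gene that passed the minimum through KO alone had to be higher there, so the counts over this list and the macrophage, interferon and cell cycle lists describe and support nothing. The 9 were higher in KO, 7 at least 2-fold, with a median log2 ratio of 1.94, or 1.89 with the gene without a WT count set to the limit of 3 counts. Cd209a, a lectin of type 2 dendritic and related monocyte-derived cells, had 1 count in 1 WT cell, 19 counts in 4 HT cells and 142 counts in 20 KO cells. Cluster 16 held 99.3% of the KO library's Cd209a counts. Xcr1, the receptor for Xcl1 on type 1 dendritic cells, had a count in 3, 1 and 12 cells, and Clec9a, a sensor of dead cells on the same type, in 2, 1 and 11. Itgax (CD11c) had no count in WT and a count in 3 HT and 27 KO cells, which makes KO at least 7-fold higher than WT. Ccr2, the chemokine receptor that brings monocytes into tissues, was at 115, 325 and 448 CPM in 18, 8 and 72 cells. Plac8 was at 135, 230 and 590 CPM. Ly6c2, a surface gene of monocytes that plasma and memory T cells also express, went the other way, at 1302, 564 and 537 CPM.

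The macrophage list had its highest summed level in KO, at 860 CPM in WT, 2199 CPM in HT and 3676 CPM in KO. In cluster 8 it summed to 22103 CPM in KO. Of 13 listed, 10 had enough counts to be compared, 4 of them without a count in WT. The 10 were at least 2-fold higher in KO, with a median log2 ratio of 2.25, or 1.76 with the genes without a WT count set to the limit of 3 counts. Lyz2, a lysozyme of myeloid cells, had a count in 6 of 72 WT, 9 of 17 HT and 55 of 161 KO cells, so its share of cells was highest in HT. C1qa, a complement gene of tissue macrophages, had a count in no WT cell, 1 HT cell (5.88%) and 5 KO cells (3.11%), with 88 counts in KO. In cluster 8 it had a count in 99.6% of cells. Whether the 5 cells are macrophages or doublets was not tested. The neutrophil genes S100a8 and S100a9 had 20 and 44 counts in 1 WT cell each, and 239 and 681 counts in 4 and 3 KO cells. The neutrophil list's median log2 ratio of 2.68 therefore rests on a few cells.

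T and NK genes differed less between WT and KO. Of 19 T cell genes compared, out of 20 listed, 6 were higher in KO and 13 lower, none by 2-fold once 10 CPM was added to each level. The median log2 ratio was -0.25. It was -0.56 with the antibody and hormone genes left out of the totals. Lck, a kinase of T cell receptor signalling, was at 151 CPM in WT against 74.7 CPM in KO, and Lef1, a factor of naive T cells, at 27.5 and 55 CPM. Of 13 NK genes compared, out of 15 listed, 10 were higher and 3 lower, 2 of them at least 2-fold higher (Gzma and Gzmb), with a median of 0.43. The share of NK genes higher in KO was thus near that of all genes. By the share of cells with a count in place of CPM, the NK median was -0.31. In a mixed cluster, a different number of cells of a type and a different level per cell cannot be told apart from these sums.

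The plasma list was the main one lower in KO. Of 14 genes compared, out of 15 listed, 13 were lower, 9 at least 2-fold, with a median log2 ratio of -1.54. Of all 6188 genes compared, 1900 were lower in KO, and 1.94% were at least 2-fold lower. The list holds Igkc, Igha and Jchain, the markers of the cluster's label. Igkc had a count in only 12 WT and 15 KO cells. Xbp1, the factor that drives antibody secretion, was at 316 CPM in WT, 249 CPM in HT and 95.7 CPM in KO. Txndc5, a disulfide isomerase, was at 423, 182 and 135 CPM. Of 14 secretion and protein folding genes, 10 were lower in KO, 2 at least 2-fold, with a median of -0.41. General chaperones did not follow: Hspa5 was at 536, 1396 and 604 CPM.

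**Figure D4:**
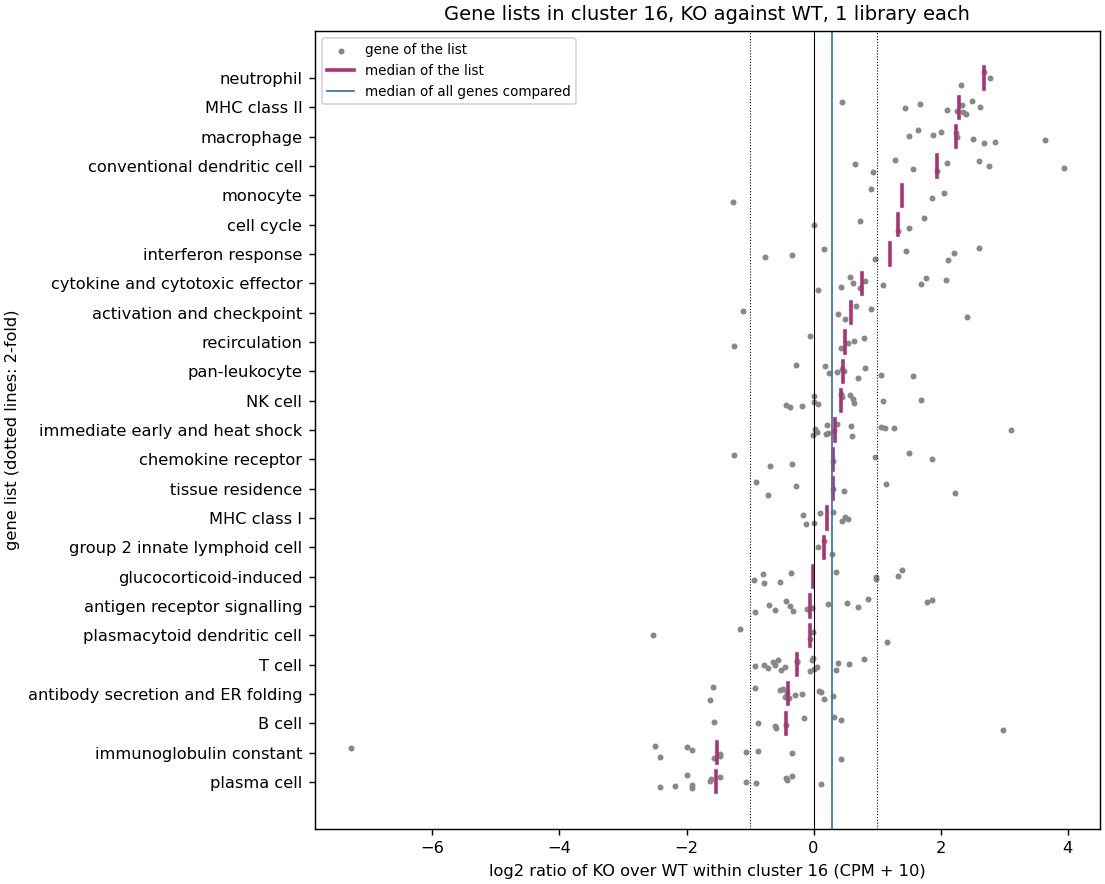
Log2 ratio of KO over WT in cluster 16 for each compared gene of the gene lists (grey), the median of each list (red bar), the median of all 6188 genes compared (blue line, 0.29) and 2-fold limits (dotted). Plasma cell and immunoglobulin lists lie at the low end (medians -1.54 and -1.52), and neutrophil, class II, macrophage and dendritic lists at the high end.

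Genes were ranked by size of the log2 ratio after the filters given under data processing, which left out immunoglobulin and hormone genes, among others. The 10 leading genes on the KO side were Cd209a, Tnip3, C1qa, Mgl2, Ms4a6d, Atf3, Hfe, Ms4a1, Dab2 and Cd68. Mgl2, a lectin of type 2 dendritic cells and some macrophages, had 9 counts in 2 WT cells, 22 in 5 HT cells and 303 in 22 KO cells. Tnip3, an inhibitor of NF-kappaB signalling, had 1, 24 and 142 counts in 1, 4 and 27 cells, but in cluster 8 it was lower in KO, at 13.4 CPM against 48.5 CPM in WT. Atf3, a stress-induced factor, was at 13.7, 163 and 195 CPM. Cd68, a lysosomal protein of macrophages, was at 8.24, 19.1 and 122 CPM.

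On the WT side, after the same filters, the 10 were Ly6d, Ly6a, Jchain, Slpi, Mir7678, Mzb1, Dlk1, Pcp4, Nnat and Xbp1. Ly6d, a surface gene of early B lineage cells and plasmacytoid dendritic cells, had 31 counts in 5 WT cells, none in HT and 5 counts in 2 KO cells. Ly6a (Sca-1) had 81 counts in 11 WT cells, 44 in 1 HT cell and 28 in 11 KO cells. Slpi, a protease inhibitor, had 199 counts in 7 WT cells, 7 in 1 HT cell and 93 in 6 KO cells. Mir7678 lies inside Slpi on the same strand, so its 75, 2 and 35 counts may be the same reads. Dlk1 and Nnat are imprinted genes known from endocrine cells. Nnat had a count in 60, 15 and 116 cells of cluster 16 and in 77.3% of cluster 9 cells.

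Hormone RNA also differed between the libraries, in an order that depended on the cluster and the gene. Gh, encoding growth hormone, had a count in every cell of cluster 16, at 73300 CPM in WT, 14497 CPM in HT and 22616 CPM in KO. In cluster 8 its levels were 58919, 34505 and 14129 CPM, and in cluster 9 they were 94501, 39604 and 26901 CPM. In cluster 16, Pomc stood at 1217, 7755 and 10.5 CPM. The part of free hormone RNA in the differences above was not tested. Of the 10 genes on the WT side, Dlk1, Pcp4 and Nnat were also lower in KO in cluster 8, with log2 ratios of -1.29, -0.28 and -0.81, and in cluster 9, with log2 ratios of -1.28, -1.89 and -2.13. For other cell types within cluster 16, 1 HT cell gave the 22 Plvap counts of the HT members. Platelet genes had no count in the cluster 16 cells of any library.

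Genes of tissue residence and of recirculation were both read. Cxcr6, a receptor of resident lymphocytes, had a count in 27 WT, 1 HT and 43 KO cells, and Itga1, a collagen-binding integrin, in 12, 1 and 30. Ccr7, the receptor that guides cells to lymph nodes, had a count in 5, 0 and 5 cells. The recirculation list summed to 489 CPM in WT, 383 CPM in HT and 716 CPM in KO. The residence list summed to 843, 363 and 987 CPM. All 6 recirculation genes listed were compared, with 4 higher in KO, 2 lower and a median log2 ratio of 0.49. Itgae (CD103) had 1 count in WT, 8 in HT and 38 in 15 KO cells. Of 7 residence genes compared, out of 8 listed, 4 were higher in KO and 3 lower, with a median log2 ratio of 0.31, near that of all genes. The median turned to -0.04 with the antibody and hormone genes left out of the totals.

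Of 8 interferon response genes compared, out of 14 listed and 1 of them without a count in WT, 6 were higher in KO, a share near that of all genes. Of these, 4 were at least 2-fold higher, and the list's median log2 ratio was 1.21. Ifi27l2a was at 143 CPM in WT, 277 CPM in HT and 695 CPM in KO, in 15, 7 and 81 cells. Rtp4 had 39 counts in 20 KO cells and none in WT or HT, which makes KO at least 6.2-fold higher than WT. In cluster 8 the same 8 genes had a median of 0.55. Mki67, made in dividing cells, had a count in 1 WT, 1 HT and 8 KO cells, and Top2a in 2, 0 and 10. Of 12 cell cycle genes, 5 had enough counts to be compared, and these were higher in KO, 3 at least 2-fold, with a median log2 ratio of 1.33. Of 10 compared genes that glucocorticoids induce in many cells, out of 15 listed, 5 were higher and 5 lower. Tsc22d3 was at 140, 153 and 77.3 CPM and Cebpb at 173, 497 and 469 CPM.

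Against clusters 8 and 19, cluster 16 stood higher in many lymphoid genes and in some monocyte and neutrophil genes. With genotypes summed, 197 of 12291 genes were at least 4-fold higher in cluster 16, which is 1.6%. The clusters were made from these genes, so the counts describe and support nothing. The 15 in the lead were Igkc, Igha, Jchain, Iglc1, Ighg2b, Ly6c2, S100a9, S100a6, S100a4, Mzb1, Iglv1, Nkg7, Trbc2, Plac8 and Cd3g. Of 20 T cell list genes, 15 were at least 4-fold higher, and so were 10 of 13 NK genes and 3 of 10 conventional dendritic cell genes. The same held for 9 of 15 plasma cell, 4 of 4 monocyte and 3 of 4 neutrophil genes, with S100a9 read in only 4 cells. S100a4 and S100a6, calcium-binding proteins of motile leukocytes, were spread over the cluster: S100a6 had a count in 41 WT, 13 HT and 95 KO cells and stood at 4.27 CPM in cluster 8.

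At the other end stood macrophage genes. Ms4a7, C1qb, Apoe, C1qa and C1qc were the 5 lowest against clusters 8 and 19. Apoe, a lipid carrier that macrophages make in bulk, was at 129, 631 and 722 CPM in cluster 16, at 53029 CPM in cluster 8 and at 15160 CPM in cluster 19. Csf1r, the receptor for the macrophage growth factor, was at 5.49, 47.8 and 89.1 CPM in cluster 16, at 682 CPM in cluster 8 and at 1933 CPM in cluster 19. Class II genes separated clusters 8 and 19 from one another: H2-Aa was at 9677 CPM in cluster 8 and 27.8 CPM in cluster 19, with cluster 16 between. Cd209a had no count in either. Cluster 16 thus held class II counts with few counts of C1qa or Csf1r.

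**Figure D5:**
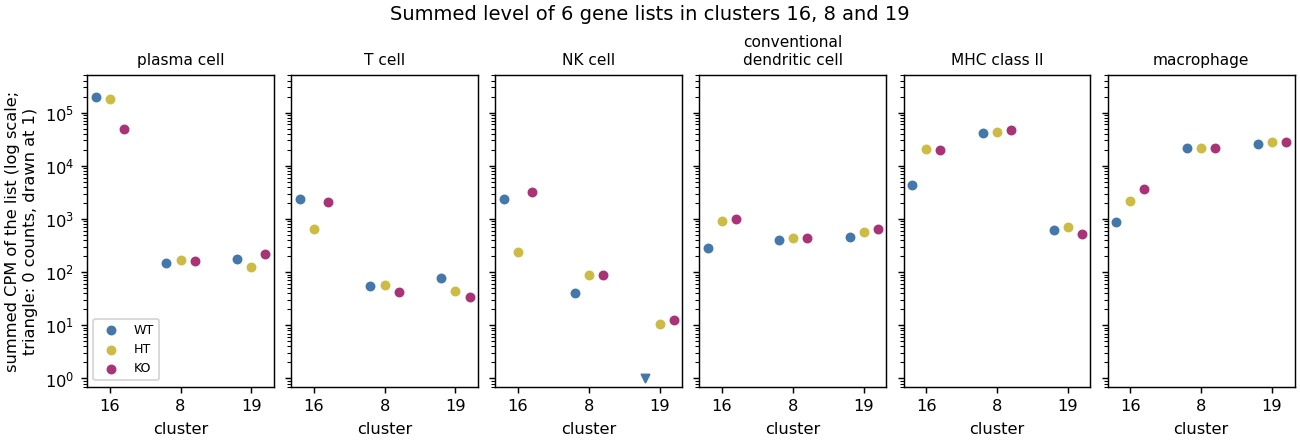
Summed CPM (log axis) of 6 gene lists in clusters 16, 8 and 19, 1 point per library; a triangle marks 0 counts. Plasma, T and NK lists stand highest in cluster 16, the macrophage list in clusters 8 and 19, and the class II list in cluster 16 is 4270 CPM in WT against 20876 in HT and 20194 in KO.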

How the data were processed

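Counts per gene were deposited by the authors as sums per genotype and cluster, with the number of cells with a count of each gene. A second deposited table, the authors' scaled counts (recorded as signal), multiplied these sums by 1 factor per genotype and cluster, and served as an alternative. The deposited table of barcodes gave each cell its UMAP coordinates and cluster number. Cell Ranger 5, Seurat 3.1 and DESeq2, and the builds mm10 and GRCm38, are listed in the submitters' processing notes with no role. Whether reads were collapsed to molecules and whether counting used strand are not given in the sources used here. Doublets were treated only as the authors may have done.

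The members and the gene lists were chosen with earlier results of these data known. Rows with the same symbol were added (110 of 55403 rows). Log2 ratios used CPM of the cluster's total after adding 10 CPM, over genes with a WT and KO sum of at least 20 counts (over clusters 8, 16 and 19 for the comparison of clusters). By these ratios, with 10 CPM added, a gene was counted as higher or lower past 2-fold, or 4-fold between clusters. Folds are plain ratios of CPM. Shares have exact Clopper-Pearson intervals, counts exact Poisson intervals and ratios exact conditional binomial intervals, at 95%, from scipy 1.17.1. Genes named were the markers, leading list members, up to 10 higher and 10 lower in KO (at least 50 CPM and 5 cells with a count in the higher genotype), up to 15 highest and 5 lowest against clusters 8 and 19, and up to 4 per receptor gene family. Rankings left out predicted, sex-linked, hemoglobin, ribosomal protein, mitochondrial and hormone genes and, between genotypes, immunoglobulin genes. UMAP groups are cells linked within 0.5 units, with at least 3 cells. Of the list genes, 4 gamma chain symbols had no row under the names used. The ratios were tested on simulated counts with Poisson spread only. That simulation held no clustering of counts in few cells and no spread between animals, so it does not cover either. Promoters are RefSeq's, on GRCm38.p6. Other totals, pseudocounts, filters and cluster bases were tried as alternatives.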

Additional observations from a re-analysis of the deposited data

Results flagged for a closer look

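The share of cluster 16 among library cells was 0.206 times as high in HT as in WT (exact conditional interval 0.114 to 0.354). It was 1.07 times as high for cluster 8 (0.921 to 1.25) and 1.29 times as high for cluster 19 (0.775 to 2.19). Both of these intervals include 1, so neither cluster can be placed above or below equality. Each share comes from 1 library, so the difference was not tested.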

How the results depend on the processing

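No paired analysis was possible because there was 1 library of each genotype, and for that reason no library could be left out. The number of genes at least 2-fold higher in KO was 790 of 6188. Over the same 6188 genes, it was 1224 with 1 CPM added and 142 with 50 CPM added. The number of genes compared changed with the filter: it was 1196 of 17847 with no filter on counts and 174 of 1444 with at least 100 counts. The number at least 2-fold lower was 120; under those settings it was 234, 26, 319 and 23, and it was 338 with immunoglobulin, hormone, hemoglobin and mitochondrial genes left out of the totals and 249 with the authors' scaled counts. The split of higher among called genes was 86.8%, and 61.5% and 72.5% in the last settings. The number at least 4-fold higher in cluster 16 than in clusters 8 and 19 was 197; it was 450 with 1 CPM added, 48 with 50 CPM added and 112 with at least 100 counts. The KO to WT ratio of the immunoglobulin share was 0.239, and 0.202 and 0.222 with scaled counts and with hormone, hemoglobin and mitochondrial genes left out. The ratio of cell shares was 1.87, and 1.57 and 1.45 with the other bases. Of 205 list medians under alternatives, 155 stayed within the counting interval. Of 153 values of named genes, 149 stayed past 2-fold. The UMAP groups were the same at link distances of 0.3 and 1, and merged at 2, where 100% of KO cells formed 1 group; these distances were chosen after seeing the data.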

Other observations

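Ighm, the IgM heavy chain constant gene, was not led by cluster 16. It was at 121 CPM in WT, 182 CPM in HT and 166 CPM in KO there, and at 221, 197 and 239 CPM in cluster 8. In cluster 19 it was at 154, 215 and 229 CPM. It had a count in 44.6%, 47.2% and 58% of the cells of cluster 8, but in 0.577% of the cells of cluster 9. Cd79a, the partner of membrane IgM, had a count in 0.182% of the cells of cluster 8. Igkc was at 3.42 CPM in cluster 8, so the kappa light chain was not found at a like level.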
